A study of Mus musculus with 2 samples.

Results

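The immunity-related GTPases (IRG) and the guanylate-binding proteins (GBP) are 2 families of interferon-inducible GTPases of the mouse, and 10 of their genes are described here: Iigp1, Gm4951, Irgm1, Irgm2, Igtp, Tgtp1, Gbp2, Gbp3, Gbp5 and Gbp7. They were chosen by family and with the wild-type and knockout signals of these same arrays already known, so the differences below describe the arrays and support nothing by themselves. A gene was taken as measured when a main probeset carried its symbol and no other. This held for 9 of the 10, with 1 probeset each, out of 24315 genes named by a single symbol. The remaining gene, Tgtp1, was named only together with Tgtp2, on 2 probesets that are given separately.

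RNA came from thioglycollate-elicited peritoneal macrophages of C57BL/6 mice, either wild type or carrying an HDAC11 knockout, a histone deacetylase deletion whose allele the labels leave undescribed. Cells of both genotypes were cultured overnight with no treatment and only the adherent cells were used, so no interferon was added to either. There was 1 array per genotype, and the labels do not tell how many mice stand behind each, or their age and sex. Differences are log2 signals of the knockout minus the wild-type array, and with 1 array per group they have no replicate error, test or p-value. The number of arrays limits their precision.

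As background, both families are produced in macrophages mainly in answer to interferon-gamma, which acts at gamma-activated sites and interferon-stimulated response elements of their promoters. The proteins gather on the membranes of vacuoles that hold bacteria or protozoa such as Toxoplasma. Effector IRGs, Iigp1 among them, damage that membrane, while the regulators Irgm1, Irgm2 and Igtp keep the effectors off the membranes of the host cell. GBPs are larger GTPases related to dynamin that bind the same vacuoles and also promote inflammasome activation.

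Promoter windows from RefSeq (build GRCm38.p6), running from 250 bases before to 50 after a start site, were matched by symbol for 8 of the 10 genes. Iigp1 and Gm4951, which had the largest differences described below, had no window, so the motif counts do not cover them. The windows are shown because they carry the elements through which these genes are known to answer interferon. The core of the interferon-stimulated response element was searched as GAAA followed after any pair of bases by GAAA again, and that of the gamma-activated site as TTCNNNGAA, on both strands. Both are short patterns and a match is a description, not a bound site. In the following stretches upstream of the start sites of 3 chromosome 3 GBP genes, capitals mark the matches.
Gbp5, chr3:142496684-142496933, plus strand: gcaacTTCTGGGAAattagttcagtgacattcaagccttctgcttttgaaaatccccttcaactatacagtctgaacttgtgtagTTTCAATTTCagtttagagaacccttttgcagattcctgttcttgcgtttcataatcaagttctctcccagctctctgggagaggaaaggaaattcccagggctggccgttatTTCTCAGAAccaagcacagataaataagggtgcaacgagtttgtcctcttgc
Gbp2, chr3:142620413-142620662, plus strand: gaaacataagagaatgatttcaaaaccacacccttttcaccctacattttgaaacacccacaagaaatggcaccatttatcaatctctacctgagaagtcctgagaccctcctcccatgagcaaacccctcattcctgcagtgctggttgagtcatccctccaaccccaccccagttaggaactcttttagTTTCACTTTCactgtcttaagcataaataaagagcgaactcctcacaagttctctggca
Gbp7, chr3:142530086-142530335, plus strand: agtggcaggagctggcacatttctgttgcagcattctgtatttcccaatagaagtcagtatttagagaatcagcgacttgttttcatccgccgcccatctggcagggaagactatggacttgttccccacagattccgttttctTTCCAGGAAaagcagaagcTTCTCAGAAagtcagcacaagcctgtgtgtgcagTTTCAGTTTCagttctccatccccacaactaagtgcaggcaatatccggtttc
These 3 are shown because of the 4 listed GBP genes, Gbp5 and Gbp2 had the lowest differences described below and Gbp7 the only higher one. All 3 hold 1 response element core, in the reverse orientation. Gbp5 and Gbp7 each also hold 2 gamma-activated site cores, while the Gbp2 window holds none with these letters.

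Of 4 IRG genes of chromosome 11, Igtp, Irgm2 and Tgtp1 carried both cores close together, and Irgm1 did not. The stretches below hold their matches with 10 bases on either side, read along the strand of each gene, and capitals again mark the matches.
Igtp, chr11:58199501-58199541, plus strand: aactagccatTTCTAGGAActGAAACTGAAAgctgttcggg
Irgm2, chr11:58214892-58214932, plus strand: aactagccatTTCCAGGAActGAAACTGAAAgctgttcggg
Tgtp1, chr11:48992304-48992344, minus strand: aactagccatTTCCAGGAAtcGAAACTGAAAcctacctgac
Irgm1, chr11:48871425-48871460, minus strand: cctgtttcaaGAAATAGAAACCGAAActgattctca
In Igtp, Irgm2 and Tgtp1 the gamma-activated site core began 11 bases before the response element core. The stretches of Igtp and Irgm2 were identical at 40 of 41 bases, and that of Tgtp1 shared 31 bases with Igtp and 32 with Irgm2. Irgm1 held a pair of overlapping response element cores and no gamma-activated site core with these letters.

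The response element core occurred in a window of 8 of 8 genes, against 3.44% of all 32851 windows in the table. The gamma-activated site core occurred in 5 of the 8, against 8.30% of windows. The arrangement with a spacing of 11 bases, which was picked after the sequences were seen, occurred in 5 of the 32851 windows, and these belonged to Igtp, Irgm2, Tgtp1, its neighbour copy Tgtp2 and the IRG gene Gm12185. Gbp3 has 2 windows, of which the first holds a pair of overlapping response element cores and the second neither core.

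**Figure D1:**
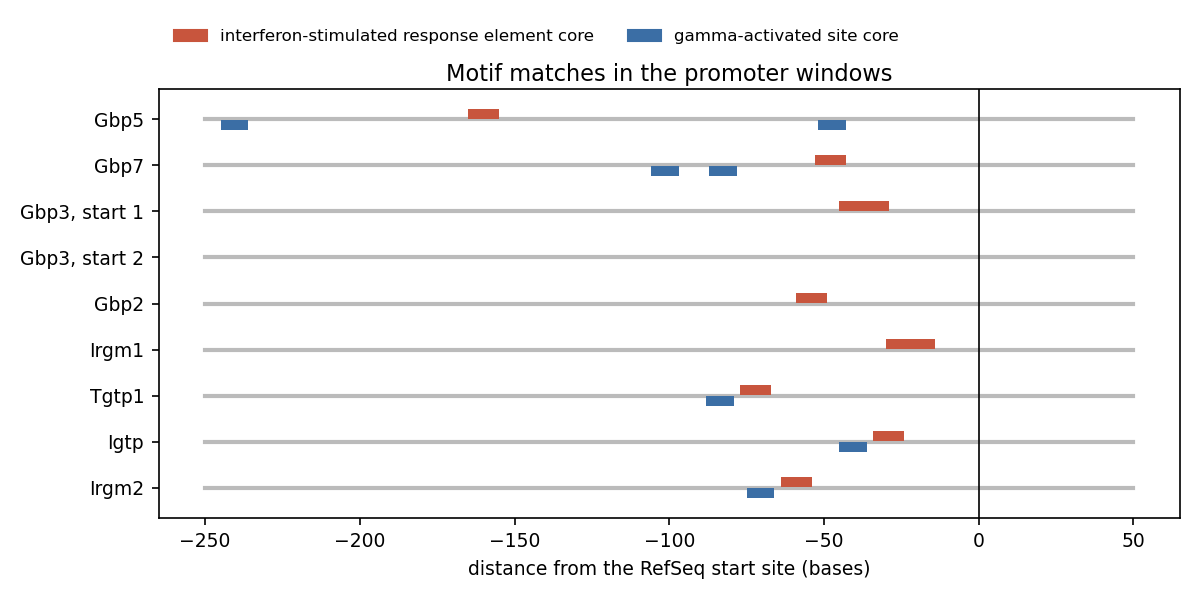
Positions of the motif matches in the promoter windows of 8 GTPase genes, on an axis of bases from the RefSeq start site (grey lines are the windows; Gbp3 has a pair of start sites). Response element cores (red) lie within 77 bases of the start site in all genes but Gbp5, where the match begins 165 bases upstream; gamma-activated site cores (blue) lie just before them in Tgtp1, Igtp and Irgm2.

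The GTPase genes were mostly lower on the knockout array, by amounts that differed widely from gene to gene. Of the 9 measured, 8 were lower and Gbp7 was higher, where 53.2% of named genes above a signal floor were lower. Iigp1, Gm4951 and Gbp5 were lower by more than 2-fold, Gbp2 by 1.37-fold, and the other 5 differed by less than that. The median difference over the 9 was -0.27, where that over the named genes above the floor was -0.01. Of those 12158 genes, 1.01% were lower by 1.5-fold or more, 0.543% higher by as much, and 0.271% lower by 2-fold or more. Because the genes were listed from this same contrast, nothing is read from their share. The floor, a signal of 159.1 on the brighter array, is the median over named genes; 8 of the 9 reached it, Gbp5 did not, and 6 reached it on both arrays.

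Iigp1, also called Irga6, is an effector IRG that coats Toxoplasma and Chlamydia vacuoles, and it showed the largest difference among the 9. Its probeset (17350925, chromosome 18, 60376029 to 60392634, 15 probes) read 198.8 in wild-type RNA and 59.1 in knockout RNA. The signal was thus above the floor on the wild-type array and below it on the other. The difference was -1.75, or 3.36-fold, and 16 added to each signal before log2 brought it to -1.52. Among the 2695 named genes within 0.25 of its mean log2 signal, 0.0371% had a difference as low or lower, and the median of those genes was 0.08. Iigp1 was listed with these signals already known, so nothing is read from this rank.

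Gm4951 lies in the same chromosome 18 cluster, and RefSeq lists Ifgga2 as its synonym. Its probeset (17350916, chromosome 18, 60212077 to 60247820, 14 probes) read 206.2 in wild-type RNA and 90.1 in knockout RNA, again crossing the floor. The difference was -1.19, or 2.29-fold. Both chromosome 18 genes differed by more than Igtp, Irgm2 and Irgm1 of chromosome 11, whose differences lay between -0.27 and -0.11. Between them lie 2 further genes of this cluster that did not reach the floor on either array. F830016B08Rik, for which RefSeq gives the name Ifgga4, had signals of 80.0 and 52.0 (-0.62), and Gm4841, also called Ifgga3, had 37.5 and 44.5 (0.25).

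The regulatory IRG genes of chromosome 11 were lower by small amounts. Igtp, also called Irgm3 and required for resistance to Toxoplasma (probeset 17249980, chromosome 11, 58199556 to 58207592, 25 probes), read 536.3 in wild-type RNA and 444.9 in knockout RNA, a difference of -0.27. Its neighbour Irgm2 (probeset 17249990, chromosome 11, 58214977 to 58222783, 21 probes) gave 712.6 and 611.4, a difference of -0.22. Irgm1, a regulator linked to autophagy and to resistance to mycobacteria (probeset 17262202, chromosome 11, 48861968 to 48871683, 19 probes), gave 478.1 and 443.1, a difference of -0.11. All 3 were above the floor on both arrays. Of the genes within 0.25 of their mean log2 signal, 8.41% for Igtp, 11.7% for Irgm2 and 29.5% for Irgm1 had a difference as low or lower. These ranks are description only, as the genes were listed with the signals known.

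Tgtp1, an effector IRG also called Irgb6, shares its probesets with its near-identical copy Tgtp2, and signal cannot be assigned to either. The probeset at 48985327 to 48994172 of chromosome 11 read 159.4 in wild-type RNA and 143.6 in knockout RNA (-0.15). The other, at 49057194 to 49064212, gave 69.3 and 45.3 (-0.61), with both signals below the floor. The pair agreed in direction and not in size.

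The GBP genes of chromosome 3 did not move together. Gbp5, which promotes NLRP3 inflammasome assembly (probeset 17403205, chromosome 3, 142496900 to 142522344, 18 probes), read 95.3 in wild-type RNA and 46.1 in knockout RNA. The difference was -1.05, or 2.07-fold, but both signals lay below the floor, and with 16 added it was -0.84. Gbp2, which is recruited to Toxoplasma vacuoles (probeset 17403268, chromosome 3, 142620602 to 142638008, 16 probes), gave 1247 and 908.1, a difference of -0.46. It had the largest difference of the 6 genes above the floor on both arrays, and 0.627% of 1275 genes of like signal had a difference as low or lower. Gbp2 too was listed with its signals known, so nothing is read from that rank.

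Gbp3 (probeset 17403237, chromosome 3, 142560052 to 142573212, 18 probes) read 195.5 in wild-type RNA and 171.4 in knockout RNA, a difference of -0.19. Gbp7, which takes part in defence against intracellular bacteria (probeset 17403224, chromosome 3, 142530338 to 142550083, 16 probes), gave 648.1 and 750.4, a difference of 0.21. Gbp7 and Gbp5 are next to each other, at starts 142530338 and 142496900, and differed in opposite directions. By the deposited annotation the probesets of all 9 genes are unique, so cross-hybridisation between family members is not recorded for any of them. The probesets shared by Tgtp1 and Tgtp2 carry the same annotation, so it does not exclude signal shared between close copies.

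**Figure D2:**
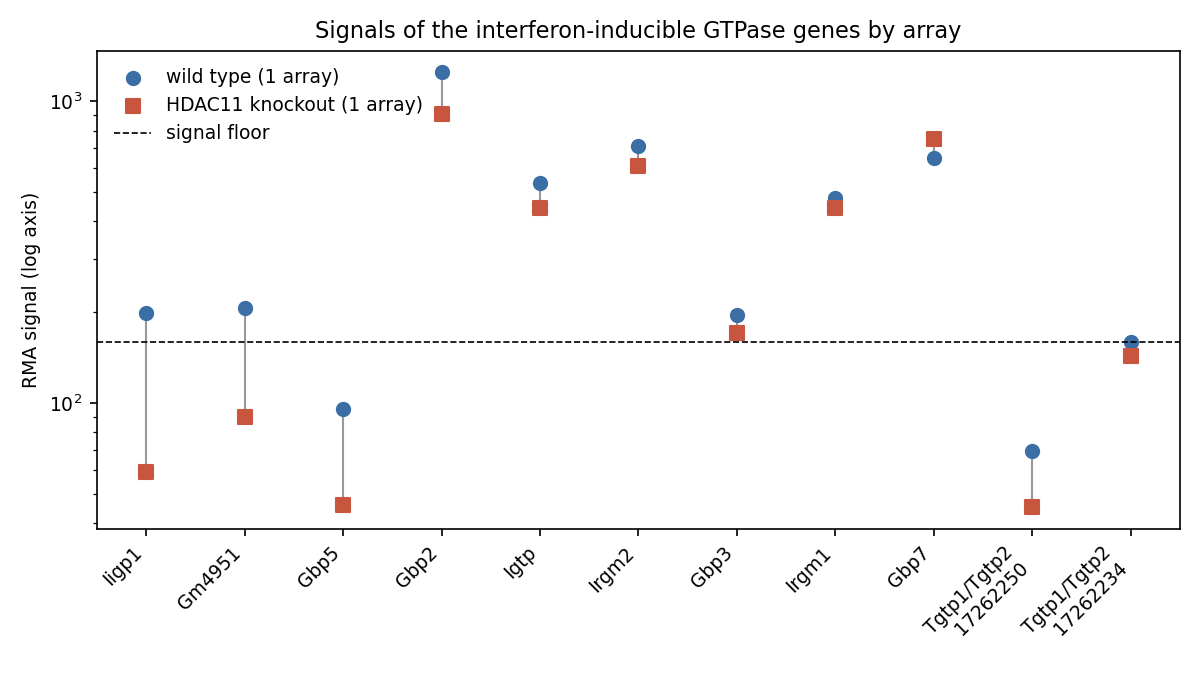
RMA signal of each GTPase gene on the wild-type array (circles) and the HDAC11 knockout array (squares), on a log axis, ordered by difference, with the pair of probesets shared by Tgtp1 and Tgtp2 at the right. Iigp1 and Gm4951 cross the signal floor of 159.1 (dashed), Gbp5 lies below it on both arrays, and Gbp7 alone is brighter on the knockout array.

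Ordered by difference, Iigp1 (-1.75) was followed by Gm4951 (-1.19), Gbp5 (-1.05), Gbp2 (-0.46), Igtp (-0.27), Irgm2 (-0.22), Gbp3 (-0.19), Irgm1 (-0.11) and Gbp7 (0.21). Gbp5 and Gbp2 were separated by a gap of 0.59. The steps from Igtp to Irgm1 were at most 0.08 each, smaller than the SD of 0.20 to 0.23 among genes of like signal, so that their order is not resolved. The 3 lowest were the ones with a knockout signal below the floor. Among the 5466 named genes within the range of their mean signal, 0.951% were lower by 1.5-fold or more and 32.9% were lower at all.

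Genes around the clusters did not share the differences of Iigp1 and Gm4951. Within 0.5 Mb of either, 7 genes outside the family were above the floor, of which 3 were lower and 4 higher, with a median of 0.00 and none at 1.5-fold. The furthest from 0 were Rps14, a ribosomal protein gene (155.0 and 192.5, a difference of 0.31), and Tcof1, a nucleolar factor gene (513.4 and 430.8, -0.25). Around the chromosome 3 genes 3 of 4 were lower, with a median of -0.11, and Pdlim5 gave -0.18 and Pkn2 -0.11. Around Igtp and Irgm2 6 of 8 were lower, with a median of -0.06, and Gemin5 and Larp1 both gave -0.17. Around Irgm1 6 of 7 were lower, with a median of -0.15, and the furthest from 0 were the small nucleolar RNA gene Snord95 (-0.37) and the olfactory receptor gene Olfr1395 (0.25). The difference of Irgm1 lay within the range of its neighbours above the floor (-0.37 to 0.25). Those of Igtp and Irgm2 lay just under the lowest of their neighbours above the floor (-0.17). Among neighbours below the floor, Olfr30 (-0.39) lay under both and Olfr331 (-0.23) under Irgm2.

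**Figure D3:**
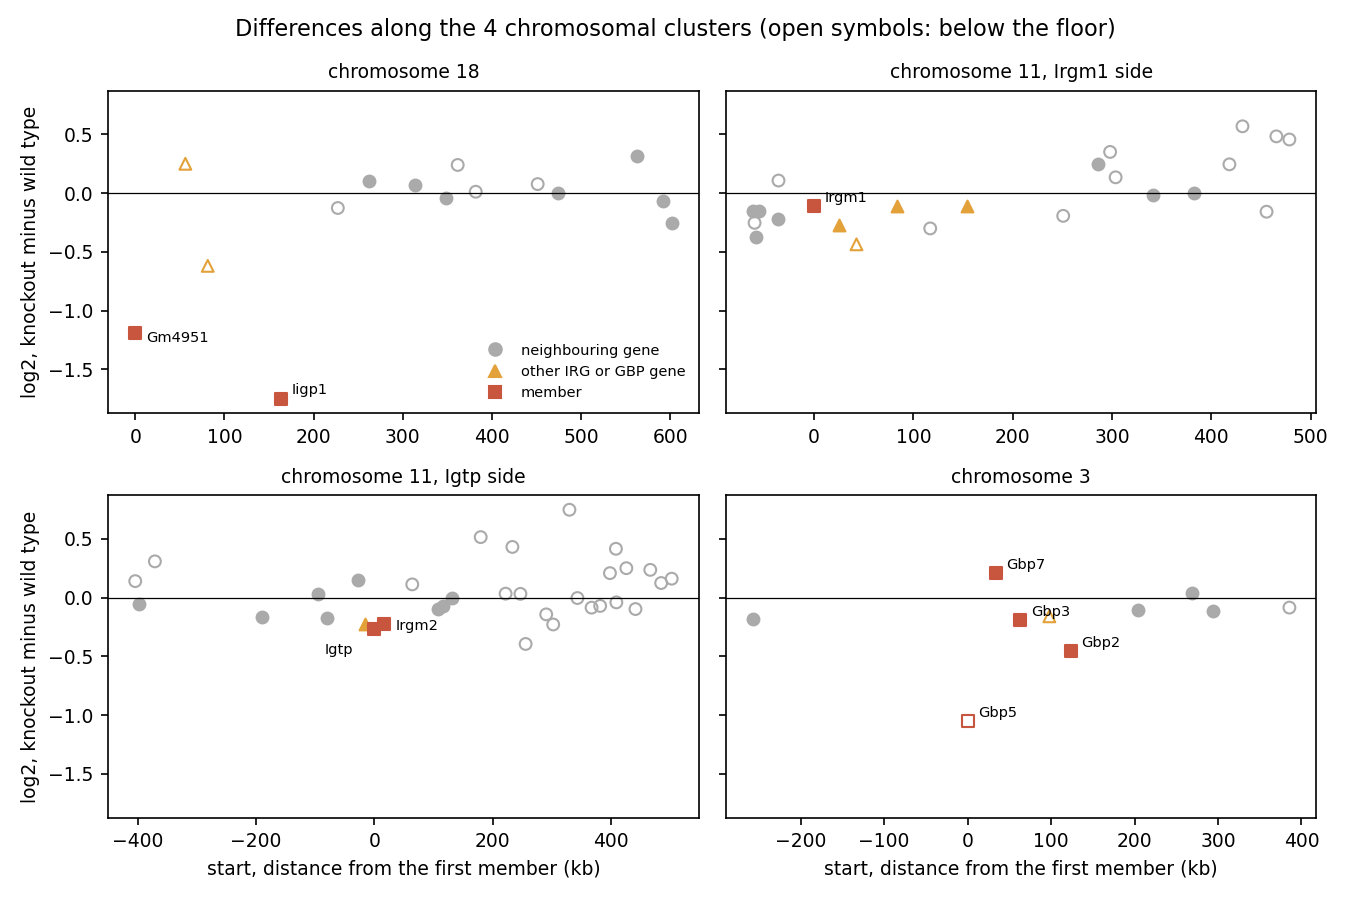
Difference between the arrays (log2, knockout minus wild type) against distance in kb from the first listed gene of each of 4 clusters, for listed genes (squares), other IRG or GBP genes (triangles) and neighbouring genes (circles); open symbols lie below the floor. Iigp1 (-1.75), Gm4951 (-1.19) and Gbp5 (-1.05) lie well under their neighbours, Irgm1 (-0.11) lies among its neighbours, and Igtp (-0.27) and Irgm2 (-0.22) lie just under those above the floor.

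The rest of the families was also mostly lower. Of 20 further IRG, GBP and giant GTPase genes with a probeset of their own, 16 were lower and 4 higher, with a median of -0.22, where 44.1% of all named genes were lower. Of these, 4 were lower by 1.5-fold and none was higher by as much, where 1.06% of all named genes were lower by 1.5-fold and 1.03% higher; all 4 had both signals below the floor. They were Gbp8 (74.8 in wild-type and 40.8 in knockout RNA, -0.87), Gbp4 (67.1 and 37.9, -0.82), the giant GTPase pseudogene Gm4759 (22.1 and 13.7, -0.69) and F830016B08Rik, described above. Together with the listed genes, 16 family genes reached the floor on both arrays. None of those 16 differed by 1.5-fold, where 0.693% of such genes were lower by it. Of them 14 were lower, where 54.3% of such genes were, with a median of -0.21 and a range of -0.46 to 0.21. They include 6 listed genes, 5 of them lower, that were listed from this same contrast, so nothing is read from this share.

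In the chromosome 5 GBP cluster 5 of 6 genes were lower, with a median of -0.24. Beside Gbp8 and Gbp4 these were Gbp9 (342.8 in wild-type and 271.4 in knockout RNA, -0.34), Gbp10 (372.4 and 337.8, -0.14) and Gbp6 (22.7 and 21.2, -0.09). Gbp11 was higher, at 24.4 and 31.1 (0.35), with both signals below the floor. Gbp10 is not unique by the deposited annotation. On chromosome 3 Gbp1 gave 74.98 and 67.1 (-0.16).

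The giant interferon-inducible GTPase Gvin1 read 1376 in wild-type RNA and 1074 in knockout RNA (-0.36). Its relatives Gm4070 (-0.26) and Gm8989 (-0.21) lie beside it on chromosome 7, and the probesets of these 3 are not unique by the deposited annotation. Of the further IRG genes of chromosome 11, Gm12185 gave 146.5 and 108.2 (-0.44), Gm5431 1330 and 1098 (-0.28), and Gm12250 442.7 and 378.8 (-0.22). The remaining pair, 9930111J21Rik1 and 9930111J21Rik2, both gave -0.11. Irgc1, an IRG gene of the testis that interferon does not induce, went the other way, at 93.7 and 106.6 (0.19), as did Irgq, at 185.0 and 210.4 (0.19).

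Of the interferon-gamma pathway genes and targets described next, Cxcl9 was lowest (-1.27), between Iigp1 (-1.75) and Gm4951 (-1.19). For comparison, 53.2% of named genes above the floor were lower, and 1.01% were lower by 1.5-fold or more. Of 16 genes for the cytokine, its receptor and its signalling and transcription factors, 15 were above the floor, of which 11 were lower and none reached 1.5-fold, with a median of -0.04. Among these Irf1, the transcription factor that binds response elements of GBP promoters, had the largest difference, at 870.7 in wild-type and 652.5 in knockout RNA (-0.42), followed by Ciita, the activator of MHC class II genes, at 412.3 and 333.2 (-0.31). Among 22 other interferon-gamma targets that reached the floor, 14 had the lower signal in knockout RNA, the median was -0.08, and 2 were lower by 1.5-fold. Those were the chemokine Cxcl9 (238.7 and 99.0, -1.27) and Irg1, the enzyme that makes itaconate and no relative of the IRG GTPases (202.1 and 119.4, -0.76), and both had a knockout signal below the floor, as Iigp1 did.

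Among 24 type I interferon targets that reached the floor, 17 had the lower signal in knockout RNA (median -0.11), none by 1.5-fold. Their furthest values lay on opposite sides of 0, with Ifit3 at 178.3 in wild-type and 257.4 in knockout RNA (0.53) and the oligoadenylate synthetase gene Oas1g at 798.9 and 605.5 (-0.40). Here too the shares over named genes above the floor were 53.2% lower and 1.01% lower by 1.5-fold or more. No list was tested, and the lists are described by counts and medians.

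Partners and relatives of the GTPases had medians near that of the named genes above the floor (-0.01), of which 53.2% were lower. Of 19 genes for ATG8 conjugation and vacuole ubiquitylation, through which IRGs and GBPs reach their membranes, 8 were lower and 11 higher (median 0.01), with Map1lc3a at 0.40 and the ubiquitin ligase Trim21 at -0.24. Of 8 inflammasome genes linked to GBPs 5 were lower (median -0.01), with Casp4, which encodes the sensor protease of cytosolic lipopolysaccharide, at -0.28 and Nlrc4 at 0.23. Of 12 dynamin superfamily GTPases that interferon does not induce 7 were lower (median -0.06), with the endocytic Ehd1 at -0.24 and the mitochondrial Mfn1 at -0.19. None of these 3 lists had a gene at 1.5-fold. Of named genes above the floor only 1.01% were lower and 0.543% higher by as much, so nothing is read from this.

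**Figure D4:**
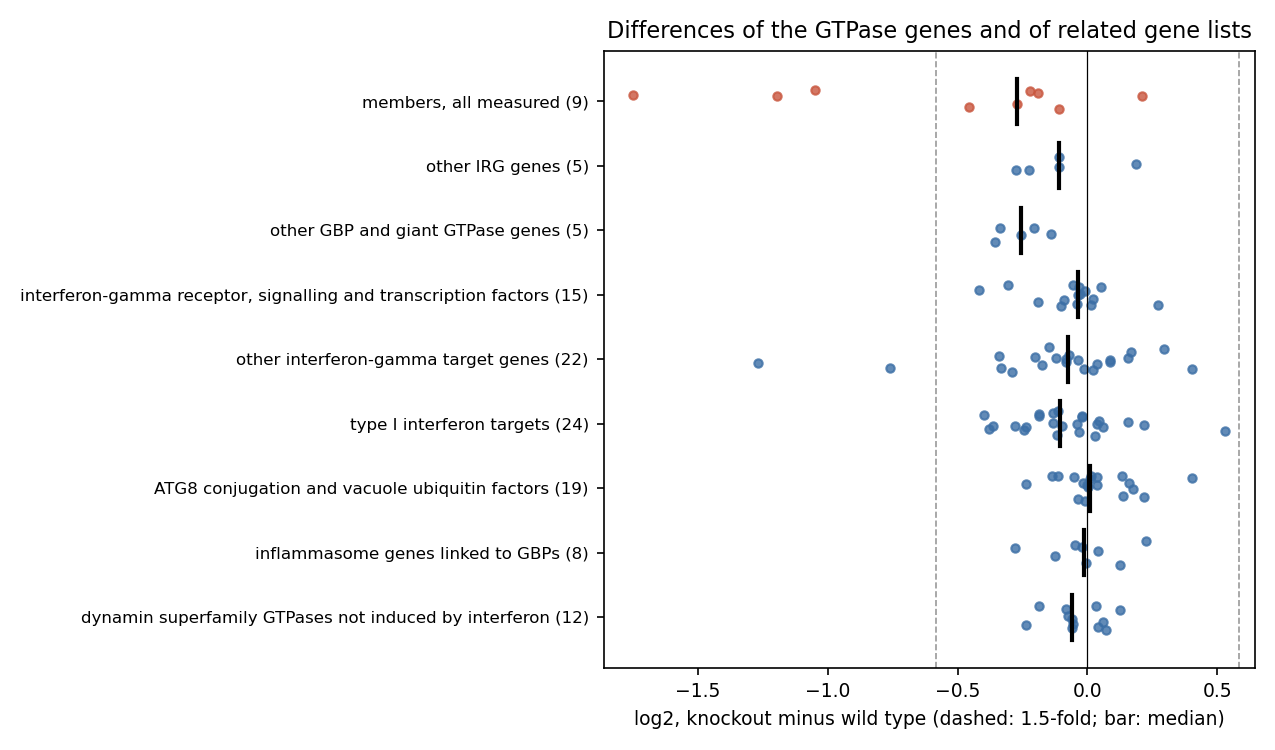
Difference between the arrays (log2, knockout minus wild type) for the 9 measured GTPase genes and, for 8 related lists, the genes above the floor (points; number in brackets), with the median of each as a bar and 1.5-fold as dashed lines. Apart from Iigp1, Gm4951 and Gbp5, the genes past 1.5-fold are Cxcl9 (-1.27) and Irg1 (-0.76).

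The deposited annotation gave further shared features. GTPase activity was recorded for 6 of the 9 genes, and a cellular response to interferon-beta for Iigp1, Gm4951, Igtp, Gbp2 and Gbp3. Outside the families, 245 genes above the floor were annotated with GTP binding, and their median difference was -0.02, with 142 lower. A term for defence against protozoa was recorded for Iigp1, Irgm2, Gbp2, Gbp3 and Gbp7. Gbp7, the listed gene that was higher, thus shared it with genes that were lower.

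Genes with signals like those of Iigp1 over the 2 arrays were sought outside the listed genes and without predicted or clone names. This left out Gm4951 (206.2 in wild-type and 90.1 in knockout RNA), whose pair of signals also lay close to that of Iigp1. Of the remaining genes above the floor, the 3 whose pair of log2 signals lay nearest were small RNA genes. They were the small nucleolar RNA gene Snora20 (196.9 in wild-type and 82.0 in knockout RNA, distance 0.47) and the microRNA genes Mir669a-3 (176.7 and 91.3, distance 0.65) and Mir680-1 (177.1 and 94.2, distance 0.69). With 2 values per gene this likeness reflects signal and difference alone.

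The labels could not be checked on the targeted gene. Hdac11 read 134.5 in wild-type RNA and 147.2 in knockout RNA, both below the floor, and the labels do not tell whether its probes lie in the deleted part. Every direction above rests on the label. Y-linked Eif2s3y (281.4 in wild-type and 26.8 in knockout RNA), Uty (313.8 and 32.5), Kdm5d (176.4 and 25.9) and Ddx3y (286.2 and 98.0) were also lower on the knockout array, by -3.39 to -1.55. Xist was bright on both arrays, at 8688 and 8458 (-0.04). Genotype and whatever set these genes apart, the unlabelled sex of the mice included, cannot be told apart. Intron control probesets had a median of -0.36 over 5331 probesets. Their part in the differences of the GTPase genes was not tested.

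Macrophage markers fitted the label, with 10 of 10 genes above the floor on both arrays, a summed signal of 63194 in wild-type and 66243 in knockout RNA and a median difference of 0.01. The furthest of these from 0 were Lyz1 (0.49) and Mertk (0.27). Of 13 resident peritoneal macrophage markers 12 reached the floor, 7 of them lower and 5 higher (median -0.18), and the summed signal of all 13 was 6248 and 5397. Selp (-0.82) and Cxcl13 (-0.60) were lower by 1.5-fold and F5 (0.61) was higher. Of 9 mesothelial and fibroblast markers 6 reached the floor, and all 6 were lower (median -0.28, with Pdgfra at -0.52 and Col1a2 at -0.34). Of all named genes above the floor, 53.2% were lower. Over all 9 markers 7 were lower and 2 higher, namely Krt19 (0.16) and Lum (0.11), both below the floor. The summed signals of the 9 were 3931 in wild-type and 3241 in knockout RNA. Of the lymphocytes that make interferon-gamma, natural killer cell markers reached the floor in 2 of 7 cases (Prf1 at -0.27 and Nkg7 at 0.25, summed signals 542.0 and 587.0) and T cell markers in 1 of 6 (Cd5 at 0.10, summed signals 571.5 and 569.2). No marker had a signal of 0, and the part of any of these cells in the differences was not tested. In RNA of a whole cell sample, fewer cells of a type and less RNA per cell cannot be told apart.

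Other processing choices left the direction of all 9 genes as it was. Over 6 other ways of scaling or summarising the signals, Iigp1 lay between -1.82 and -1.52, Gm4951 between -1.26 and -1.07, Gbp5 between -1.12 and -0.84 and Gbp2 between -0.46 and -0.43, while Gbp7 lay between 0.21 and 0.24. The differences of Iigp1, Gm4951 and Gbp5 were smallest with 16 added to each signal, which weighs most on dim signals. Among the 6 ways, the log2 values deposited by the authors are the same signals, and averaging probesets changes nothing for genes with 1 probeset each. These ways could not have moved a gene, and centring on the median shifts all genes alike.

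**Figure D5:**
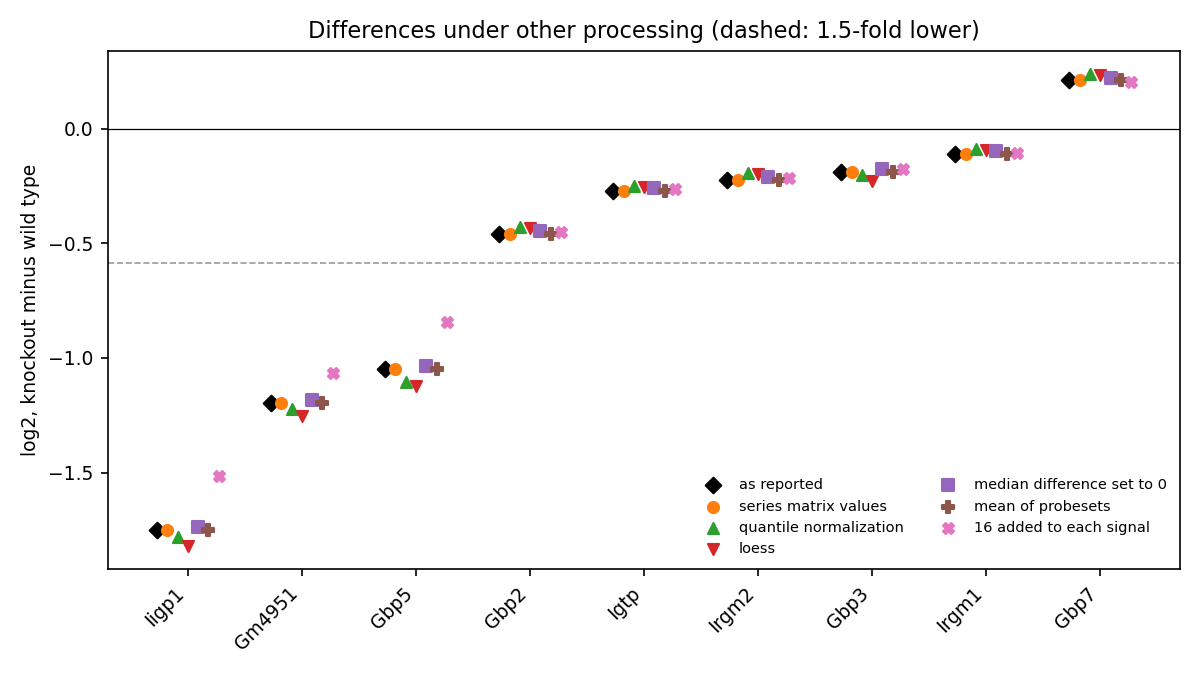
Difference of each measured GTPase gene (log2, knockout minus wild type) as reported (black) and under 6 other ways of processing, with 1.5-fold lower as the dashed line. Iigp1, Gm4951 and Gbp5 stay past that line, and the other 6 genes stay short of it, under each of the 6.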

How the data were processed

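For each of 41345 probesets the authors deposited a linear RMA intensity. The submitters' processing notes name Affymetrix Expression Console 1.2.1 as well as RMA, and the file headers name RMA. RMA corrects background, makes the distributions of the arrays alike and summarises probes, so a general shift between the arrays cannot be seen. The series matrix the authors deposited holds log2 values of these signals, within 5e-05 of log2 of the workbook values. The signed fold score deposited by the authors was recomputed from the signals. No source used here names the genome build. The deposited spans of 9 of 9 genes overlapped the RefSeq genes of the same name in GRCm38.p6.

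Of 33641 main probesets, 124 named several genes and 6954 none. The brightest probeset stood for each of 24315 genes, of which 12158 reached the floor. The members, 8 gene lists, 10 marker lists and tests were chosen with earlier results of these data known. Named were all listed and family genes, and of each gene list, marker list or neighbourhood the genes above the floor at 1.5-fold (at most 4) or the 2 furthest from 0, without predicted or clone names. Older names were matched through RefSeq. Marker lists not described above had medians of 0.21 (monocyte, 4 genes), 0.00 (B cell, 5) and 0.00 (dendritic cell, 1) above the floor. Those of the neutrophil (3) and the eosinophil and mast cell (2) lists were -0.26 and 0.69. Over all measured genes the medians were, in the same order, 0.15 (6), -0.01 (6), -0.12 (6), 0.07 (8) and 0.04 (8). Above the floor the genes of these lists at 1.5-fold were Chi3l3 (0.82), S100a8 (0.89) and Cpa3 (1.12), all higher. No gene of the other 2 lists reached it. Only the 1.5-fold call was tested on simulated data, with noise smaller than the SD of 0.17 to 0.24 among genes of like signal. That test therefore shows nothing about calls on dim genes. The work ran in Python 3.11.15 with pandas 2.3.3 and numpy 2.4.6, loess came from statsmodels 0.14.6, ranks from scipy 1.17.1, and plots from matplotlib 3.10.9.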

Additional observations from a re-analysis of the deposited data

How the results depend on the processing

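No paired analysis was possible because there was 1 array per genotype. A median or difference was taken as moved when it changed by more than 0.1 on the log2 scale, and a count when it changed by over 1.5 times. The number of listed genes lower by 1.5-fold, 3 of 9, was 0 of 3 with a floor at the 75th percentile and 0 of 6 with both arrays above the floor. Both filters left out Iigp1, Gm4951 and Gbp5 (knockout signals 59.1, 90.1 and 46.1), the only listed genes lower by 1.5-fold. The count thus rests on genes with dim signals. The second filter removes genes through a low knockout signal, the quantity being counted. The number was 1 of 7 without the chromosome 18 genes. That alternative was chosen after seeing the data, as were a floor on the brighter array (2 of 8) and Tgtp1 counted through its brighter shared probeset (3 of 10). The median of the listed genes lay between -0.27 and -0.21 throughout. Of single genes, 51 values stayed and 3 moved, all with 16 added (Iigp1 -1.52, Gm4951 -1.07, Gbp5 -0.84). The values that stayed include those from the deposited log2 values and from averaging probesets, which could not move. All 72 list medians stayed, but these include the deposited log2 values, which could not move, and median centring, which shifts all genes alike. Quantile normalization, loess and median centring moved the median of genes above the floor by less than 0.1. Background correction was not varied, and without replicates no setting shows the spread between animals.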
